A study of Mus musculus with 6 samples.

Results

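Collagen is hydroxylated inside the cell that makes it and crosslinked after it is secreted, and 10 genes of these steps are described here in mouse visceral fat: the lysyl oxidases Lox, Loxl1, Loxl2, Loxl3 and Loxl4, the lysyl hydroxylases Plod1, Plod2 and Plod3, and the prolyl 4-hydroxylase catalytic subunits P4ha1 and P4ha2. They were chosen by name and function, with earlier results of these data known, by matching the Ensembl identifiers of the gene table to the GENCODE M21 annotation (GRCm38). All 10 were found among the 54532 genes of the table, and all 10 passed the filter on low counts that left 15751 genes for testing.

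Prolyl 4-hydroxylases act in the endoplasmic reticulum, where hydroxyproline gives the collagen triple helix its thermal stability. Lysyl hydroxylases modify lysines of the same chains, which then serve as attachment sites for sugars and as partners in crosslinks. Lysyl oxidases are copper enzymes outside the cell that oxidise lysine and hydroxylysine side chains of collagen and elastin to reactive aldehydes, from which the crosslinks of the mature matrix form. In fat, a crosslinked collagen network surrounds each adipocyte, and its remodelling in obesity is a long-standing subject of study.

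RNA was sequenced from the epididymal fat, a visceral depot, of male C57BL/6J mice kept on a normal diet (ND, 4.5% fat) or a high-fat diet (HFD, 60% fat), with 3 samples in each group. Feeding started at 4 weeks of age and lasted 16 weeks, and the HFD mice were 20 weeks old. The sample titles and the sequencing methods name no compound, and they do not say whether a vehicle was given. Whole tissue was used, so each value is a mixture over all the cells of the depot, and fewer cells of a type and less RNA per cell cannot be told apart. The labels do not say whether a sample was a single mouse or a pool, so the p-values below measure only the spread between these samples.

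Gene counts summed to 18142034 to 18859320 in the ND samples and 16996896 to 17763638 in the HFD samples, and 3 counts, taken as the detection floor, correspond to 0.150 to 0.181 CPM (counts scaled by library size). Adipocyte markers were present in every sample, summing to 31981 to 41037 CPM in ND fat and 11637 to 29876 CPM in HFD fat, and edgeR called 1 of the 8 (Cfd), DESeq2 2 (Cfd and Plin1) and limma-voom 0 lower on HFD. Within these sums Cfd alone had 11711 to 15619 CPM in ND fat and 162 to 2501 CPM in HFD fat. It was the 1 marker of the 8 with every HFD sample below every ND sample. Of the marker lists, the macrophage list had the most calls, with 8 of 10 higher on HFD by edgeR and sums of 1856 to 1973 CPM in ND fat and of 5161, 4020 and 8755 CPM in HFD replicates 1, 2 and 3. The 8 fibroblast and progenitor markers, which mark the main collagen-producing cells, summed to 2501 to 2816 CPM in ND fat and 2490 to 2624 CPM in HFD fat, with 0 called in either direction by edgeR and 1 (Dpt) at an unadjusted p under 0.05, which DESeq2 called lower. Of 7 mural and smooth muscle markers edgeR called 2, DESeq2 4 and limma-voom 1 lower. Of the endothelial, mesothelial and lymphocyte markers edgeR called 0, with 1 (Kdr) at an unadjusted p under 0.05 that DESeq2 called lower. Epithelial markers summed to 205 CPM in ND replicate 3 and to 9.95 to 13.8 CPM in the other samples. The part of these differences in the enzymes' values was not tested.

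The central question was whether the enzymes differ between the diets. With edgeR's quasi-likelihood test and Benjamini-Hochberg adjustment over all 15751 genes, 0 of the 10 passed an adjusted p of 0.05 in either direction, and 3 (P4ha1, Plod1 and Plod3) had an unadjusted p under 0.05, as did 34.0% of all genes tested. Over all genes tested the same rule called 9.85% higher and 6.04% lower on HFD. DESeq2 called 2 of the 10, Plod1 and P4ha1, higher and 0 lower, where it called 10.7% of the genes it tested higher and 8.42% lower, and limma-voom called 0. Fitted log2 fold changes (HFD over ND) were positive for 8 enzymes and negative for Loxl1 and Loxl2, with a median of 0.30 against 0.0074 over all genes tested. In 3 enzymes every HFD sample lay above every ND sample and in 0 every HFD sample lay below, where 21.9% and 19.0% of all genes tested did so. The count depended on 1 library: without HFD replicate 2, edgeR called 3 enzymes higher, namely P4ha1, Plod1 and Loxl3. Calls over all genes rose in that fit as well, to 2368 of 16298 genes higher, from 1552 of 15751 in all samples. Without ND replicate 3, the sample with the epithelial markers, the count stayed at 0. That fit called fewer genes of the whole table, 607 higher and 396 lower rather than 1552 and 952. The unchanged 0 is thus no check on that sample. An exact two-sided permutation test of 3 against 3 samples cannot give a p below 0.1, so none is given for single genes.

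**Figure D1:**
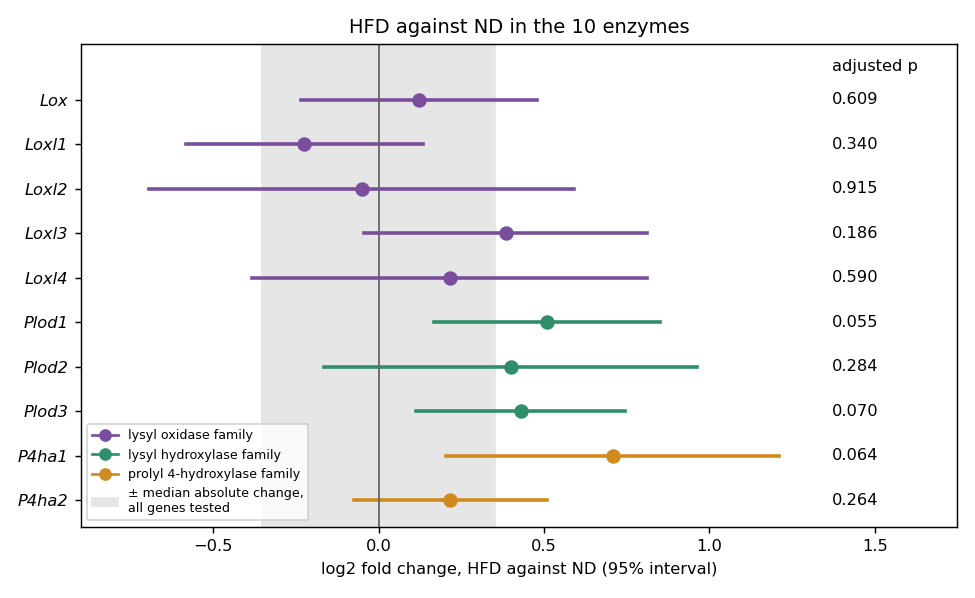
Log2 fold change (HFD over ND) of each of the 10 enzymes, as points with 95% confidence intervals from edgeR's quasi-likelihood fit, coloured by family, with adjusted p at the right and a grey band at ± 0.353, the median absolute log2 fold change of all genes tested. The intervals of P4ha1 (0.20 to 1.21), Plod1 (0.17 to 0.85) and Plod3 (0.11 to 0.75) lie above 0, the other 7 span 0, and no adjusted p is under 0.05.

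The prolyl 4-hydroxylase subunits were considered first. P4ha1 (ENSMUSG00000019916, plus strand of chromosome 10, 59323296 to 59373304) encodes the widely expressed catalytic alpha subunit. Its level was 50.3, 51.0 and 49.9 CPM in ND replicates 1, 2 and 3 and 76.0, 60.5 and 111 CPM in HFD replicates 1, 2 and 3. The ND samples were nearly equal, every HFD sample lay above them, and the HFD samples were spread widely, with replicate 3 highest. The mean was 50.4 ± 0.532 CPM for the 3 ND samples and 82.4 ± 25.8 CPM for the 3 HFD samples (± SD), and the fitted difference was the largest of the 10 enzymes, 1.63-fold (95% interval 1.15 to 2.32, log2 0.71, SE 0.21). By edgeR's test over all genes its adjusted p was 0.0642 (unadjusted p 0.0125), which misses the threshold, and by DESeq2 it was 0.0287. Without HFD replicate 2 the log2 fold change was 0.89, with an edgeR adjusted p of 0.0119, and without HFD replicate 3 it was 0.42, with an edgeR adjusted p of 0.0711.

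P4ha2 (ENSMUSG00000018906, plus strand of chromosome 11, 54100095 to 54131665), the second alpha subunit, had 22.6, 20.5 and 19.4 CPM in ND fat and 22.4, 25.7 and 24.4 CPM in HFD fat, and the groups overlapped. The fitted fold was 1.16 (95% interval 0.949 to 1.42, edgeR adjusted p = 0.264). P4hb, the beta subunit that also serves as protein disulfide isomerase, is the obligate partner of both. It had 365, 445 and 387 CPM in ND fat and 513, 465 and 679 CPM in HFD fat, so every HFD sample lay above every ND sample, with a log2 fold change of 0.47 that missed the threshold (edgeR adjusted p = 0.137). The third alpha subunit gene, P4ha3, had 1, 2 and 0 counts in ND fat and 1, 2 and 17 counts in HFD fat and was not tested. Per transcript length, in FPKM (fragments scaled by library size and by gene length), P4ha1 made up 78.6 ± 1.31% of the summed P4ha1 and P4ha2 level on ND and 83.0 ± 4.65% on HFD, and these shares overlapped. The ratio of P4hb to that sum was 8.94 ± 0.938 on ND and 8.15 ± 0.472 on HFD, again overlapping.

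Of the lysyl hydroxylases, Plod1 (ENSMUSG00000019055, minus strand of chromosome 4, 147909753 to 147936767) encodes the enzyme that mainly hydroxylates lysines within the triple helix. Its level was 99.7, 111 and 99.9 CPM in ND fat and 153, 123 and 167 CPM in HFD fat. Every HFD sample lay above every ND sample, and HFD replicate 2 came nearest to them. The fitted difference was 1.42-fold (95% interval 1.12 to 1.80, log2 0.51, SE 0.15), with an adjusted p of 0.0548 by edgeR (unadjusted p 0.00948) and 0.0276 by DESeq2. Plod3 (ENSMUSG00000004846, plus strand of chromosome 5, 136987019 to 136996648), whose product also carries glycosyltransferase activity towards hydroxylysine, had 95.9, 111 and 87.3 CPM in ND fat and 120, 138 and 139 CPM in HFD fat, with no overlap. It was 1.35-fold (95% interval 1.08 to 1.68, log2 0.43, SE 0.14), with an edgeR adjusted p of 0.0701, and 11.9% of its exonic bases overlap other annotated genes, mainly Znhit1 on the opposite strand. The counts of Znhit1 were 714, 776 and 783 on ND and 680, 622 and 859 on HFD.

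Plod2 (ENSMUSG00000032374, plus strand of chromosome 9, 92542223 to 92608428) encodes the lysyl hydroxylase known for acting on the telopeptides at the chain ends, a step tied to the stable pyridinoline crosslinks of fibrotic tissue. It had 19.4, 23.0 and 25.6 CPM in ND fat and 25.6, 22.9 and 41.2 CPM in HFD fat. The groups overlapped, and HFD replicate 3 alone stood well above the ND samples. The fitted fold was 1.32 (95% interval 0.892 to 1.95, edgeR adjusted p = 0.284), an interval that spans no difference, and without HFD replicate 3 the log2 fold change went from 0.40 to 0.08. The ratio of Plod2 to Plod1 was 0.275 ± 0.0414 on ND and 0.251 ± 0.0519 on HFD in FPKM, and the samples of the diets overlapped.

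The sequences before the start sites of P4ha1 and Plod1, the enzymes that DESeq2 called higher and edgeR did not call, are shown. Each is the 250 bases before the RefSeq start in GRCm38.p6, read 5′ to 3′ on the gene's strand, on the plus strand at chr10:59323046-59323295 for P4ha1 and on the minus strand at chr4:147936777-147937026 for Plod1. Capitals mark matches on either strand to ACGTG (a form of the core of the hypoxia response element), to GCGTG (the other form of that core), to CCAAT (the letters of the box of that name), to TATAAA (a form of the start-site box) and to GGGCGG (the GC box).

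P4ha1: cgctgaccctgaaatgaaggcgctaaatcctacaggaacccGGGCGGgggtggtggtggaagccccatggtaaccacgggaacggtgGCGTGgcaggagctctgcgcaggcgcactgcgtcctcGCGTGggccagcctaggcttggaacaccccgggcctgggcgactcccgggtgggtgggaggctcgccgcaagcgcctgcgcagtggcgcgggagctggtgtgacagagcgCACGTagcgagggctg

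Plod1: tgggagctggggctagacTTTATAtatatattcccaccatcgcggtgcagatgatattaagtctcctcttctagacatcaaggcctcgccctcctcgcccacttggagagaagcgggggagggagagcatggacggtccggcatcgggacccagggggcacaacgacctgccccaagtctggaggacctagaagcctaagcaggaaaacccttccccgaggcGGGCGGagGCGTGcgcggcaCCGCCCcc

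The P4ha1 window holds GGGCGG at position -209, GCGTG at -163 and -126, and ACGTG on the reverse strand at -16, counting the base before the start as -1 and giving the leftmost base of each match. The Plod1 window holds TATAAA on the reverse strand at -232, GGGCGG at -28 and, on the reverse strand, at -8, and GCGTG at -20. Over the 32817 windows of the same length in the RefSeq table, 16.6% hold ACGTG, 28.1% GCGTG, 33.8% CCAAT, 12.4% TATAAA and 32.7% GGGCGG. GC content was 69.6% for P4ha1 and 61.6% for Plod1, with a median of 52.4% over all windows. No match overlaps another, and the matches describe these letters only.

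**Figure D2:**
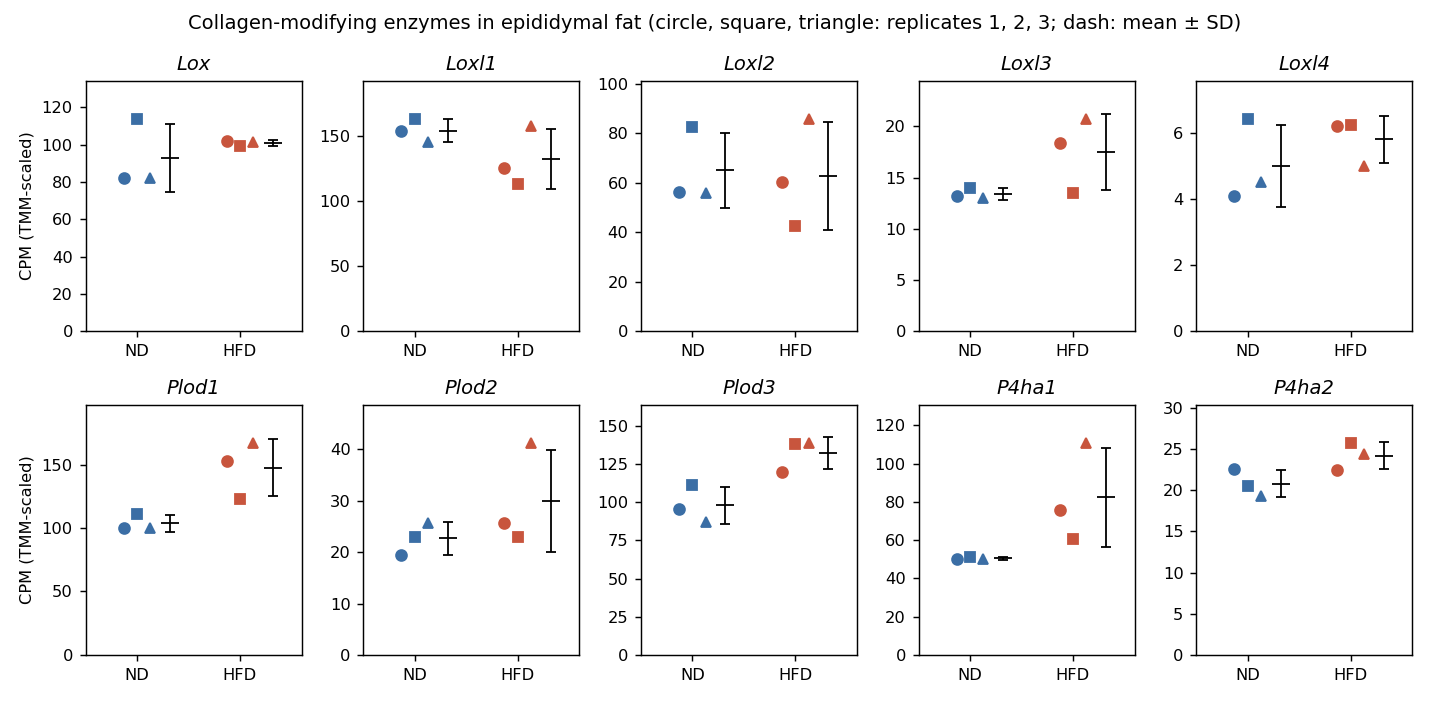
CPM of each enzyme in the 3 ND and 3 HFD samples, as points with the group mean and SD, with 1 panel per gene and axes starting at 0. In P4ha1, Plod1 and Plod3 every HFD point lies above every ND point, and in the other 7 enzymes the groups overlap.

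The lysyl oxidases had no member with separated groups. Lox (ENSMUSG00000024529, minus strand of chromosome 18, 52516067 to 52529867), the founding member of the family, had 82.2, 114 and 81.8 CPM in ND fat and 102, 99.1 and 101 CPM in HFD fat. The HFD samples lay inside the range of the ND samples, of which replicate 2 was highest. The fitted fold was 1.09 (95% interval 0.850 to 1.39, edgeR adjusted p = 0.609). Loxl1 (ENSMUSG00000032334, minus strand of chromosome 9, 58287738 to 58313186), known for its role in elastic fibre upkeep, had 154, 163 and 145 CPM in ND fat and 125, 113 and 157 CPM in HFD fat. HFD replicates 1 and 2 lay below all ND samples and replicate 3 lay among them, for a fitted fold of 0.856 (95% interval 0.668 to 1.10, edgeR adjusted p = 0.340).

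Loxl2 (ENSMUSG00000034205, plus strand of chromosome 14, 69609068 to 69695834), an oxidase with scavenger receptor domains that acts on basement membrane collagen IV, had 56.4, 82.6 and 56.0 CPM in ND fat and 60.2, 42.5 and 85.6 CPM in HFD fat. Its HFD samples held both the lowest and the highest value, the fitted fold was 0.965 (95% interval 0.618 to 1.51, edgeR adjusted p = 0.915), and the sign turned without ND replicate 2 (log2 0.16) or without HFD replicate 2 (log2 0.17). Loxl3 (ENSMUSG00000000693, plus strand of chromosome 6, 83034173 to 83052562) had 13.2, 14.02 and 13.0 CPM in ND fat and 18.3, 13.5 and 20.7 CPM in HFD fat. Replicate 2 alone of the HFD samples lay within the ND range, and the fitted fold was 1.30 (95% interval 0.970 to 1.76), with an edgeR adjusted p of 0.186 in all samples and 0.0383 without that replicate. Its log2 fold change was 0.38 in all samples and 0.23 without HFD replicate 3. Of the exonic bases of Loxl3, 11.6% overlap Htra2 on the opposite strand, which had 564, 536 and 570 counts in ND fat and 818, 642 and 843 counts in HFD fat. Loxl4 (ENSMUSG00000025185, minus strand of chromosome 19, 42593982 to 42612813) was the lowest of the family, with 4.10, 6.43 and 4.53 CPM in ND fat and 6.22, 6.26 and 5.004 CPM in HFD fat and a fitted fold of 1.16 (95% interval 0.767 to 1.76, edgeR adjusted p = 0.590). Whether the counting used strand is not given in the sources used here, so reads of Plod3 and Loxl3 cannot be told apart from those of their partners over the shared bases.

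Compared per length, Loxl1 was the most abundant enzyme on both diets, at a mean of 47.5 FPKM on ND and 40.2 FPKM on HFD, and Loxl4 the least, at 1.21 and 1.39 FPKM. On ND the order from the highest was Loxl1, Plod3, Lox, Plod1, P4ha1, Loxl2, Plod2, P4ha2, Loxl3 and Loxl4. Of these neighbours, Plod3 and Lox, P4ha1 and Loxl2, and Plod2 and P4ha2 had overlapping samples. On HFD, Plod1 (21.9 FPKM) came before Lox (21.1 FPKM), P4ha1 (20.1 FPKM) and Loxl2 (11.7 FPKM), and each of these neighbours overlapped the next. The enzymes ran from percentile 23.4 (Loxl4) to percentile 92.3 (Loxl1) of the genes tested by mean FPKM.

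Summed by family in FPKM, the lysyl hydroxylases had 40.4, 46.3 and 39.2 on ND and 54.2, 53.3 and 63.3 on HFD, and the prolyl 4-hydroxylase alpha subunits had 15.4 to 16.2 on ND and 22.2, 18.9 and 31.0 on HFD. In both sums every HFD sample lay above every ND sample. The lysyl oxidases summed to 79.6, 94.8 and 76.0 on ND and 76.3, 67.6 and 90.6 on HFD, and the diets overlapped. Within the lysyl oxidases, Loxl1 took 57.2 ± 3.50% of the sum on ND and 51.3 ± 1.39% on HFD, with every HFD share below every ND share, and Loxl3 took 3.57 ± 0.250% and 4.86 ± 0.457%, with every HFD share above. The shares of Lox, Loxl2 and Loxl4 overlapped, as did those of the 3 lysyl hydroxylases. These sums and shares were compared by their ranges, without a test.

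**Figure D3:**
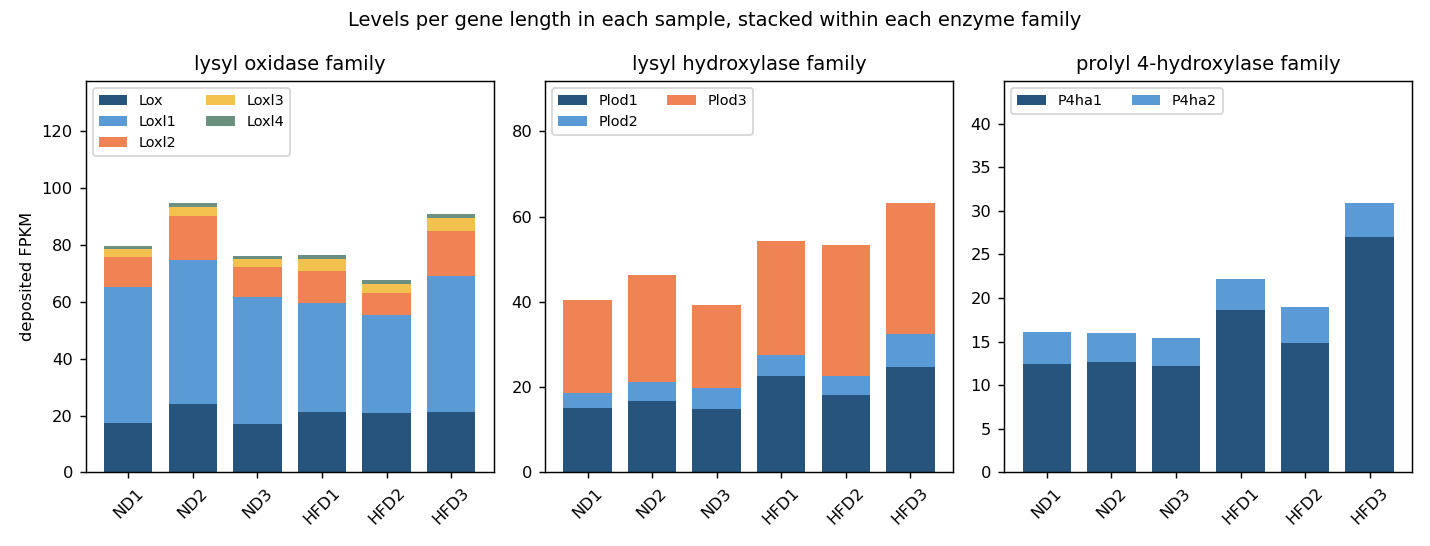
Deposited FPKM of the lysyl oxidases, lysyl hydroxylases and prolyl 4-hydroxylase alpha subunits in each of the 6 samples, stacked by gene within each family, 1 bar per sample with no error bar. The lysyl hydroxylase sums are 39.2 to 46.3 on ND and 53.3 to 63.3 on HFD, and the lysyl oxidase sums overlap.

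The enzymes were also expressed per 100 FPKM of the summed fibrillar chains Col1a1, Col1a2 and Col3a1, which are not the only substrates of these enzymes. That sum was 371, 511 and 435 FPKM on ND and 316, 219 and 615 FPKM on HFD, so HFD replicates 2 and 3 held the lowest and the highest value of all samples. Per 100 FPKM of these collagens, P4ha1 was 2.88 ± 0.446 on ND and 5.68 ± 1.199 on HFD, and Plod2 was 0.980 ± 0.125 on ND and 1.57 ± 0.359 on HFD. Both ratios were higher in every HFD sample than in every ND sample, and the ratios of the other 8 enzymes overlapped. The level of Plod2 itself overlapped, at 3.66 to 4.79 FPKM on ND and 4.28 to 7.67 FPKM on HFD. Plod1 and Plod3, whose levels did not overlap, overlapped as ratios. These ratios thus depend on the collagen sum, which varied widely on HFD, and they were not computed over all genes. The HFD values of most enzymes followed the same order among samples: HFD replicate 3 was the highest HFD sample in 7 of 10 and HFD replicate 2 the lowest in 7 of 10, where 44.1% and 40.2% of all genes tested showed these. Both held in 6 of 10 enzymes (Loxl1, Loxl2, Loxl3, Plod1, Plod2 and P4ha1) and in 32.3% of all genes tested. The macrophage markers had their highest HFD sum in replicate 3 and their lowest in replicate 2, and the adipocyte markers the reverse.

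The genes that work around these enzymes were then examined, in lists that together held 66 genes. Of the 62 tested, edgeR called 6 higher and 4 lower on HFD, against 9.85% and 6.04% of all genes tested, and their median log2 fold change was 0.05. In the prolyl 3-hydroxylase complex, which hydroxylates single prolines and assists folding, 0 of 6 were called and 0 had an unadjusted p under 0.05. The largest differences there were those of P3h2 (log2 0.52, edgeR adjusted p = 0.237) and Ppib (log2 0.21, edgeR adjusted p = 0.345). In the chaperones and export factors 0 of 4 were called and 0 had an unadjusted p under 0.05, with log2 differences of 0.16 for Mia3 and -0.13 for Fkbp14. Among the scaffolds that bring lysyl oxidases to the matrix 0 of 5 were called and 0 had an unadjusted p under 0.05, with Postn (periostin) at log2 0.84 (edgeR adjusted p = 0.212) and Efemp2 (fibulin-4) at log2 0.32 (edgeR adjusted p = 0.265). DESeq2 and limma-voom also called 0 genes in these 3 lists.

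The galactosyltransferase Colgalt1, which adds the first sugar to hydroxylysine and so uses the product of the Plod enzymes, rose on HFD. It had 96.1, 103 and 90.2 CPM in ND fat and 195, 152 and 264 CPM in HFD fat (2.12-fold, log2 1.08, SE 0.21, edgeR adjusted p = 0.0178). The other galactosyltransferase gene of the list, Colgalt2, at 3.18, 4.46 and 3.58 CPM in ND fat and 1.53, 2.35 and 1.32 CPM in HFD fat, missed the threshold (log2 -1.11, edgeR adjusted p = 0.0597), though DESeq2 and limma-voom called it lower. Pcolce2, an enhancer of the protease that trims procollagen, was the 1 of 7 tested processing genes that rose, from 28.0, 22.3 and 22.4 CPM to 54.1, 85.2 and 50.3 CPM (log2 1.38, SE 0.22, edgeR adjusted p = 0.0119). Atp7a, which pumps copper into the secretory pathway where lysyl oxidases acquire it, rose from 14.1, 12.0 and 13.9 CPM to 26.8, 24.2 and 38.1 CPM (log2 1.16, SE 0.20, edgeR adjusted p = 0.0126), the 1 of 3 copper route genes to do so. Each of these calls was lost when certain single samples were left out: Colgalt1 without any of the ND replicates or HFD replicate 1 (highest edgeR adjusted p 0.0755), Pcolce2 without ND replicate 2 or 3 (0.0571), and Atp7a without ND replicate 1 or 2 or HFD replicate 1 (0.0590).

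Among the substrates, Eln (elastin), the other main target of lysyl oxidases, fell on HFD, from 306, 312 and 290 CPM to 96.3, 115 and 77.1 CPM (log2 -1.66, SE 0.17, edgeR adjusted p = 0.00486). It was the 1 of 8 tested genes in the list of fibrillar collagens and elastin to pass the test, and the list's median log2 fold change was 0.0029. All 6 collagen IV chains had negative log2 fold changes (median -1.09) and 3 fell: Col4a5, from 59.3, 46.6 and 58.3 CPM to 23.9, 23.8 and 24.3 CPM (log2 -1.19, SE 0.13, edgeR adjusted p = 0.00546), Col4a4 (log2 -2.03, SE 0.44, edgeR adjusted p = 0.0255) and Col4a3 (log2 -2.43, SE 0.53, edgeR adjusted p = 0.0259). The most abundant chains, Col4a1 and Col4a2, were not called (log2 -0.36 and -0.15, edgeR adjusted p = 0.318 and 0.660). Their means were 1712 and 1012 CPM in ND fat and 1332 and 910 CPM in HFD fat. The chains summed to 2368 to 3651 CPM in ND fat and 2204 to 2331 CPM in HFD fat. DESeq2 called Col4a6 lower as well, and limma-voom called only Col4a4 and Col4a5. In 5 of the 6 chains every HFD sample lay below every ND sample, against 19.0% of all genes tested. Over all genes tested edgeR called 6.04% lower, and 49.5% had a negative log2 fold change. Col4a3 and Col4a4 were highest in ND replicate 3, at 15.1 and 33.9 CPM, the sample with the epithelial markers, and without it both calls were lost. Col4a3 was not called by limma-voom, and neither gene was called with the replicate number as a block. Both were also lost without ND replicate 1 or HFD replicate 1, Col4a3 without HFD replicate 3 and Col4a4 without ND replicate 2, where their adjusted p reached at most 0.103 and 0.0998 (edgeR). Eln and Col4a5 passed under all 17 alternative settings.

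Genes known to respond to hypoxia or to TGF-beta, signals that are known to act on several of these enzymes, were counted as well. Of 13 hypoxia-responsive genes, 1 rose and 0 fell by edgeR, 6 had an unadjusted p under 0.05, and 8 had a negative log2 fold change. DESeq2 called 3 lower, Egln3, Pdk1 and Vegfa, where it called 8.42% of the genes it tested lower. Their edgeR log2 fold changes were -1.36, -0.84 and -0.92. In 5 of the 13 every HFD sample lay below every ND sample and in 2 above, against 19.0% and 21.9% of all genes tested. Of all genes tested, 34.0% had an unadjusted p under 0.05 and 49.5% a negative log2 fold change. The 1 that rose was Car9, a carbonic anhydrase, with 7, 8 and 14 counts in ND fat and 65, 28 and 101 counts in HFD fat (log2 2.82, SE 0.54, edgeR adjusted p = 0.0176). Car9 missed the threshold without ND replicate 1 or 2 or HFD replicate 1, with an adjusted p of up to 0.0762 (edgeR). Of 7 TGF-beta-responsive genes edgeR called 2 higher, where it called 9.85% of all genes tested higher. DESeq2 called 3 higher, Ccn2, Tgfbi and Thbs1, where it called 10.7% of the genes it tested higher. In 3 of the 7 every HFD sample lay above every ND sample and in 0 below, against 21.9% and 19.0% of all genes tested. Thbs1 (thrombospondin-1, log2 2.02, edgeR adjusted p = 0.0127) missed the threshold without ND replicate 1 or 3 or HFD replicate 1 (up to 0.0569). Ccn2 (connective tissue growth factor, log2 0.76, edgeR adjusted p = 0.0406) was called without HFD replicate 2 and in none of the other 5 fits that left out a sample (up to 0.143). The Ccn2 call was also lost with the replicate number as a block, with scaling to library size only and with each of the 3 log2(FPKM) settings.

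**Figure D4:**
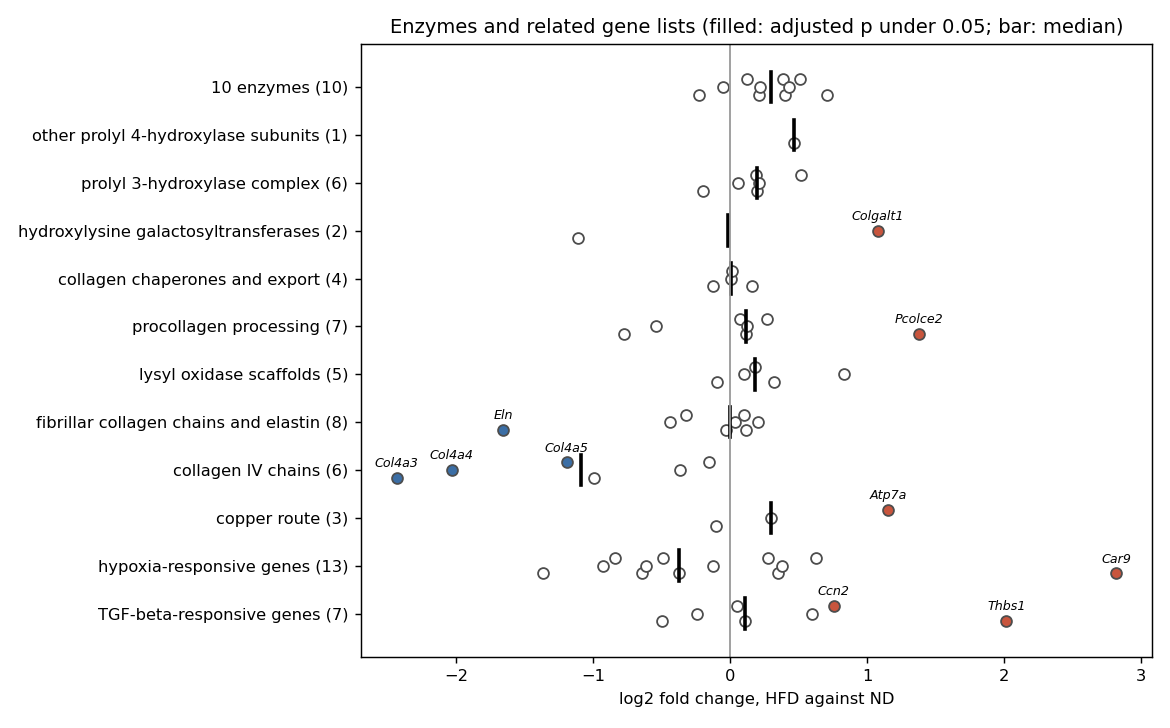
Log2 fold change (HFD over ND) of each tested gene among the 10 enzymes and in the lists around them, 1 row per list with the number tested, with genes past an edgeR adjusted p of 0.05 filled and the list's median as a bar. Colgalt1, Pcolce2, Atp7a, Car9, Thbs1 and Ccn2 are filled to the right of 0, and Eln, Col4a3, Col4a4 and Col4a5 to the left.

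Over 17 alternative ways to process or subset the data, Lox, Loxl1, Loxl2, Loxl4, Plod2 and P4ha2 passed the threshold in 0. P4ha1 passed in 3 (log2 fold change 0.42 to 0.89), Plod1 in 2 (0.39 to 0.63), Plod3 in 1 (0.32 to 0.53) and Loxl3 in 1 (0.23 to 0.54).

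**Figure D5:**
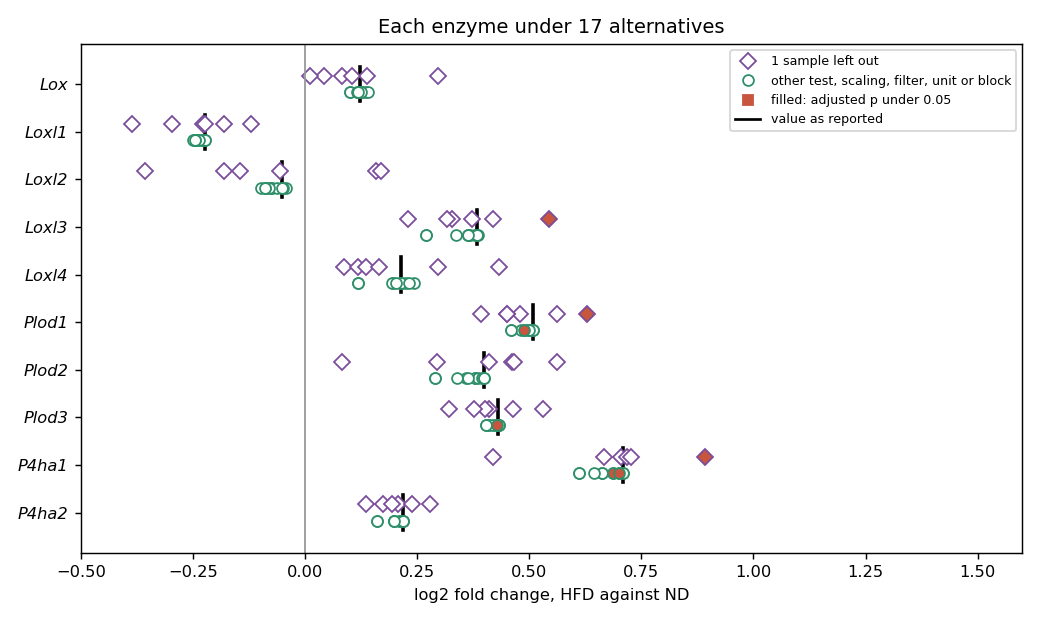
Log2 fold change (HFD over ND) of each enzyme under the 17 alternatives, with diamonds for fits that left out 1 sample, circles for the others, filled symbols where the adjusted p is under 0.05 and a vertical mark for the value reported. P4ha1, Plod1, Plod3 and Loxl3 have 3, 2, 1 and 1 filled symbols, and Loxl2 alone has values on both sides of 0.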

How the data were processed

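RNA-seq of 6 epididymal fat samples, 3 per diet, was analysed, and no pair of samples was a duplicate by a chi-square comparison of counts. The deposited gene counts are raw, and the authors also deposited FPKM values computed from them. The methods name GRCm38, TopHat and Cufflinks, whereas the submitters' notes name fastp, HISAT2 2.0.5, featureCounts 1.5.0-p3, DESeq2 1.20.0 and a human build. The identifiers are mouse (54495 of 54532 are in GENCODE M21), and gene lengths implied by the FPKM values matched M21 exons for 9 of the 10 enzymes exactly.

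Counts were tested in R 4.3.3 with edgeR 4.0.16 (TMM, filterByExpr, robust quasi-likelihood F-test, diet as the only term, Benjamini-Hochberg adjustment over all genes, threshold 0.05). CPM used TMM library sizes. The alternatives used DESeq2 1.42.0, limma 3.58.1, other scalings and filters, log2(FPKM + 1) or log2(FPKM + 0.1), a replicate block, or 5 samples. Scripts were tested on simulated counts. The biological coefficient of variation was 24.8%.

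The enzymes and gene lists were chosen with earlier results of these data known. Of each related list, the called genes with the largest absolute log2 fold change were named, up to 3 in each direction, or up to 2 as values where none was called. Some other genes of these lists were named as well, among them Colgalt2, Col4a1, Col4a2, Egln3, Pdk1 and Vegfa. The labels do not pair the samples by number. Promoter windows came from RefSeq (GRCm38.p6), which matched 5 of the 10 enzymes. A gene of the TGF-beta-responsive list is not reported here and was left out of the list counts.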

Additional observations from a re-analysis of the deposited data

How the results depend on the processing

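Of the 10 enzymes, 0 were called higher by edgeR in all samples. The count was 2 with DESeq2's Wald test (Plod1 and P4ha1), 1 with scaling to library size only (Plod3, adjusted p = 0.0379) and 1 with no filter on low counts (P4ha1, adjusted p = 0.0482), and the cause was not tested. It ranged from 0 to 3 when each sample was left out in turn, with 3 only without HFD replicate 2, and the number called lower was 0 under every alternative. With the replicate number as a block, 0 enzymes were called, and 1183 genes rather than 1552 were called higher. Deviations of same-numbered samples from their group means correlated at -0.0528, -0.0221 and 0.0036, so the numbers were not taken as pairs. The log2 fold change of Loxl2 ran from -0.36 to 0.17 over the fits that left out a sample, and the other 9 enzymes kept their sign under all 17 alternatives. Over all genes, leaving out a sample gave 337 (without ND replicate 1) to 2368 (without HFD replicate 2) genes higher and 94 (without HFD replicate 1) to 1572 (without HFD replicate 2) lower, DESeq2 called 1596 lower rather than 952, and unfiltered log2(FPKM + 1) called 394 higher and 255 lower. With 3 samples per diet, the intervals of 7 enzymes span 0, and a p that misses the threshold does not show equal levels.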
